A study of Mus musculus with 20 samples.

Results

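miR-129 was followed in primary cultures of mouse ventral midbrain on day 1 and day 5 in vitro (DIV1 and DIV5), with and without GDNF. Its members are the 3 rows of the count files whose names start with mmu-miR-129-, namely mmu-miR-129-5p, mmu-miR-129-1-3p and mmu-miR-129-2-3p, out of 1886 mature miRNA names, of which 1581 had at least 1 read. The family was chosen by its measured increase in level from DIV1 to DIV5 in these libraries, so the values by day are given as a description and carry no test. The comparisons with GDNF were tested.

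All cultures were primary cells of the ventral midbrain of C57Bl6/J embryos of day 12.5, grown without serum in a B27-supplemented neuronal medium. The 4 groups were DIV1 without GDNF, DIV1 with 10 ng/ml GDNF, DIV5 without GDNF and DIV5 with 10 ng/ml GDNF, each with 5 small RNA libraries. GDNF (glial cell line-derived neurotrophic factor) is a survival factor for dopaminergic neurons. The labels do not say whether the replicates of a group came from separate embryos or separate platings, so the p-values cover no more than the variation among the libraries sequenced. The cultures are mixed, and dopaminergic neurons are only one of the cell types that ventral midbrain holds. In such bulk samples fewer cells of a type and less RNA per cell cannot be told apart.

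miR-129 is a vertebrate miRNA enriched in brain. Each of its hairpin genes, Mir129-1 and Mir129-2, is cut into a 5p and a 3p strand, and a strand loaded into Argonaute represses mRNAs that pair with its seed. The 5p strand is known for its part in homeostatic downscaling of synapses and for repressing the potassium channel Kv1.1, and the 3p strands are known for promoting the formation of cilia by repressing CP110. Both hairpins give the same 5p strand, so only the 3p strands tell the copies apart.

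The sequences below are shown because the copy comparison rests on a single base of the 3p strand. They are from RefSeq on GRCm38.p6 and are written 5′ to 3′, and in the mature strands capitals mark the seed, bases 2 to 8.
mmu-miR-129-5p: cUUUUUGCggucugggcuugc
mmu-miR-129-2-3p: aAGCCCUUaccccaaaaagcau
In the hairpins capitals mark the 5p strand and the stretch closest to the 3p strand of Mir129-2, which in Mir129-1 differs from it at 1 base.
Mir129-1: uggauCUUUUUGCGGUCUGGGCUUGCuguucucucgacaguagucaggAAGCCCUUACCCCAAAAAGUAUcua
Mir129-2: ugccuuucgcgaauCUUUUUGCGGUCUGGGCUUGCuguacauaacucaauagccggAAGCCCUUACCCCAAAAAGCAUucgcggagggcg
Over the 22 bases of mmu-miR-129-2-3p the hairpin of Mir129-1 differed at 1 position, C20U, counted from 1 at the 5′ end of the mature strand, and its first 19 bases were identical. The seeds of the copies in this stretch are therefore the same, and a read that ends before base 20 carries no difference between them. In both hairpins the full 21 bases of mmu-miR-129-5p were found. The stretch between the arms was 22 bases long in Mir129-1 and 21 in Mir129-2. Among the mature sequences of the RefSeq table, the seeds of mmu-miR-129-2-3p and mmu-miR-129-5p were found in no miRNA outside the miR-129 strands.

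The copies lie on different chromosomes and in different contexts (GENCODE vM21, GRCm38). Mir129-1 is at chr6:29022619-29022691 on the plus strand, within an exon of the only annotated transcript of the long noncoding RNA gene Gm3294. The nearest protein-coding genes are Snd1, 87456 bp away, and Lep, 37528 bp away. Mir129-2 is at chr2:94241364-94241453 on the minus strand, within an intron of the 3 transcripts of the long noncoding RNA gene Mir670hg that span it. Its nearest protein-coding genes are Hsd17b12 at 83399 bp and Ttc17 at 59313 bp. A further miRNA gene, Mir129b, lies on the opposite strand over Mir129-2. Its strands mmu-miR-129b-5p and mmu-miR-129b-3p had 4 and 1 reads in all 20 libraries, all at DIV5.

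Total counts per library lay between 420118 and 4324505 and were mostly higher at DIV5. 2 features of the DIV5 libraries bear on the values of miR-129. Replicates 1 and 2 of both DIV5 groups had totals of 1061619 to 1907937 and 17.7% to 19.5% of reads outside the annotated miRNAs, whereas replicates 3 to 5 had totals of 2969524 to 4324505 and 9.51% to 13.3%. The labels name no batch, and values within each of these sets stand beside the pooled ones. DIV5 control replicates 1 and 5 also stood apart by very high levels of some other miRNAs, such as miR-7a-5p, and the comparisons were repeated without them.

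mmu-miR-129-2-3p, the strand that only Mir129-2 encodes, made up nearly all miR-129 reads at DIV5 and was far above its DIV1 level. Levels are given as CPM, counts relative to the library total after TMM scaling. At DIV1 without GDNF its level was 60.6, 58.6, 76.9, 92.9 and 101 CPM in replicates 1 to 5, a mean of 77.9 ± 18.8 CPM (SD, n = 5). At DIV5 without GDNF it was 1872, 2340, 859, 1298 and 673 CPM, a mean of 1408 ± 696 CPM (SD, n = 5). The lowest DIV5 library stood 6.69-fold above the highest DIV1 library, and the ratio of the means was 18.1.

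With GDNF the pattern by day was alike. mmu-miR-129-2-3p had 66.7, 56.6, 77.9, 86.6 and 127 CPM at DIV1, a mean of 83.0 ± 27.3 CPM (SD, n = 5). At DIV5 it had 1186, 1872, 949, 864 and 1013 CPM, a mean of 1177 ± 406 CPM (SD, n = 5). The lowest DIV5 library was 6.78-fold above the highest DIV1 library, and the ratio of the means was 14.2. The share of all miRNAs whose libraries separate by day in this way is not given here. Day differences were common, as 60.7% of all 542 tested miRNAs were called without GDNF and 52.4% with it. By mean level the strand moved from rank 234 to rank 80 among all miRNAs without GDNF, and from rank 233 to rank 78 with it.

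**Figure D1:**
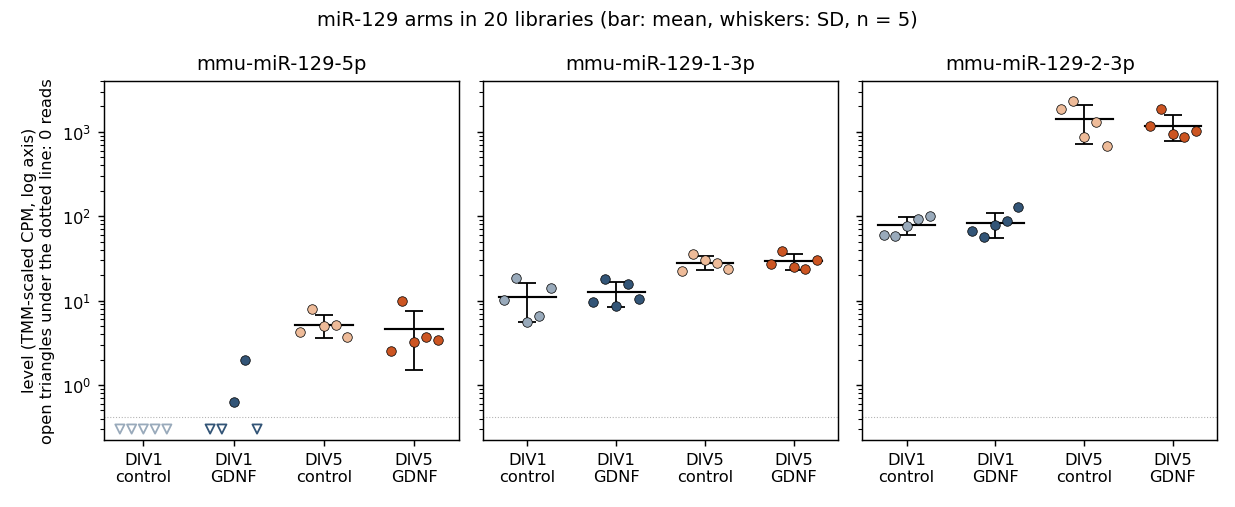
Level of each miR-129 strand in every library, in TMM-scaled CPM on a log axis, by group; bars and whiskers give the mean and SD of 5 libraries, and open triangles mark libraries with 0 reads, where no mean is drawn if any library of the group has none. mmu-miR-129-2-3p lies between 56.6 and 127 CPM at DIV1 and between 673 and 2340 CPM at DIV5, while mmu-miR-129-1-3p reaches at most 39.1 CPM.

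mmu-miR-129-1-3p, the strand assigned to Mir129-1, was rarer and differed less between the days. Without GDNF it had 10.1, 18.3, 5.59, 6.54 and 13.9 CPM at DIV1 and 22.6, 35.5, 30.5, 28.2 and 23.8 CPM at DIV5. The group means were 10.9 ± 5.29 and 28.1 ± 5.23 CPM (SD, n = 5 each), a ratio of 2.58. The lowest DIV5 library was 1.23-fold above the highest DIV1 library. With GDNF it had 9.72, 18.0, 8.72, 15.9 and 10.4 CPM at DIV1 and 27.1, 39.1, 25.03, 24.0 and 30.2 CPM at DIV5. The means were 12.5 ± 4.12 and 29.1 ± 6.10 CPM (SD, n = 5 each), a ratio of 2.32, and here the fold between those libraries was 1.33. Its DIV1 values rest on 53 and 61 reads in all 5 libraries of a group together, so counting error is a large part of their spread.

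In the edgeR fit of all 20 libraries the log2 fold change from DIV1 to DIV5 of mmu-miR-129-2-3p was 4.19 (SE 0.342) without GDNF and 3.85 (SE 0.338) with it. For mmu-miR-129-1-3p it was 1.33 (SE 0.281) and 1.18 (SE 0.277). These contrasts chose the family and are not read as a test. Over all 542 tested miRNAs, 31.4% were called higher at DIV5 without GDNF and 60.7% were called in either direction (adjusted p below 0.05), and with GDNF the shares were 25.1% and 52.4%. The median log2 fold change of all tested miRNAs was 0.10 and 0.0017. The DIV5 replicates differed in the size of the rise: against all DIV1 controls the value of mmu-miR-129-2-3p was 4.83 with DIV5 replicates 1 and 2 alone and 3.62 with replicates 3 to 5 alone.

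In the main fit the name of strongest increase holds for 1 of the 2 tested strands and for 1 of the 2 contrasts. mmu-miR-129-5p failed the filter and has no rank there. In a fit without the filter its log2 values were 6.41 without and 2.93 with GDNF, from 0 and 3 reads at DIV1. By log2 fold change mmu-miR-129-2-3p ranked 1st of 542 tested miRNAs with GDNF and 3rd without it, and mmu-miR-129-1-3p ranked 61st and 76th. Without GDNF it stood behind miR-7b-5p (log2 4.85) and miR-7a-5p (4.49), and next came miR-3068-5p (4.18), miR-24-3p (4.08) and, at a mean of at least 10 CPM, miR-411-3p (3.39). In each of these 5 the SD over the DIV5 controls was larger than the mean, for example 1507 ± 1914 CPM for miR-7a-5p (SD, n = 5), whereas for mmu-miR-129-2-3p it was below the mean. Without DIV5 control replicates 1 and 5, mmu-miR-129-2-3p ranked 1st of 530 tested miRNAs. Those libraries were left out for very high levels of miRNAs such as miR-7a-5p, so that rank follows in part from the choice. With DIV5 replicates 3 to 5 alone mmu-miR-129-2-3p ranked 5th of 531. Leaving out each library in turn gave ranks without GDNF from 1st of 543 to 7th of 566. Without the filter on low counts it ranked 11th of 1581 without GDNF and 5th with it. With GDNF the next at a mean of at least 10 CPM were miR-1298-3p (log2 2.99) and miR-7b-5p (2.64).

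mmu-miR-129-5p, the strand shared by both hairpins, was close to absent from the counts. It had 0 reads in all 5 DIV1 controls and, with GDNF, 1 read in replicate 3 and 2 reads in replicate 4. At DIV5 every library had reads: 4.24, 7.90, 4.94, 5.15 and 3.71 CPM without GDNF, from 76 reads in all, and 2.51, 9.93, 3.22, 3.74 and 3.38 CPM with GDNF, from 63 reads. Against the floor of 3 reads over the whole DIV1 control group, 0.638 CPM, its pooled level at DIV5 was at least 7.41-fold higher. With GDNF the pooled ratio was 6.50 (95% exact interval 2.13 to 32.4, for counting error only). Within a single DIV1 control library 0 reads allow a level of up to 2.02 to 4.65 CPM, which is below DIV5 control replicates 2, 3 and 4, whereas replicates 1 and 5 lay below the highest of these limits. The strand did not pass the filter on low counts and has no value in the main fit.

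The share of mmu-miR-129-5p among miR-129 reads was below 2% in every library. At DIV5 it was 0.405% ± 0.138 without and 0.359% ± 0.116 with GDNF (SD, n = 5 each). At DIV1 it was 0% in 8 of 10 libraries, with 0.714% and 1.90% in the libraries that had 1 and 2 reads. Among 273 hairpins with both arms in the files and a summed mean of at least 10 CPM, Mir129-2 had the 38th lowest share of 5p reads at DIV5 without GDNF, 0.367% of the summed CPM of both arms. This strand maps to 2 loci, and how reads with several matches were counted is not given in the sources used here. Of 47 listed miRNAs that RefSeq places at several loci, 6 had 0 reads in all libraries and 15 had a mean of at least 1000 CPM, such as miR-181a-5p. Of 1557 listed at a single locus 240 had 0 reads. The part of multiple matches in the low level of mmu-miR-129-5p was not tested.

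The balance between the copies shifted with the days in culture. At DIV1 without GDNF mmu-miR-129-1-3p made up 14.3%, 23.8%, 6.78%, 6.58% and 12.2% of the 3p reads of miR-129, from 59 to 105 reads a library. At DIV5 without GDNF the shares were 1.19%, 1.496%, 3.42%, 2.12% and 3.41%, from 2406 to 4498 reads. The highest DIV5 share was below the lowest DIV1 share, although the exact 95% intervals of DIV1 replicates 3 and 4 reach down to 1.88% and 2.17%.

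With GDNF the shares of mmu-miR-129-1-3p were 12.7%, 24.1%, 10.1%, 15.5% and 7.55% at DIV1 and 2.23%, 2.05%, 2.57%, 2.70% and 2.89% at DIV5. The days did not overlap here either. How many other miRNAs with separately named copies separate by day in this way, without or with GDNF, is not given here. In group means the share went from 12.7% ± 7.05 to 2.33% ± 1.05 without GDNF and from 13.995% ± 6.38 to 2.49% ± 0.344 with it (SD, n = 5 each). The geometric mean ratio of mmu-miR-129-2-3p to mmu-miR-129-1-3p, with 0.5 read added to each count, was 6.25-fold higher at DIV5 without GDNF and 6.21-fold higher with it. This shift comes from the same reads as the rise that chose the family and is described, not tested.

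**Figure D2:**
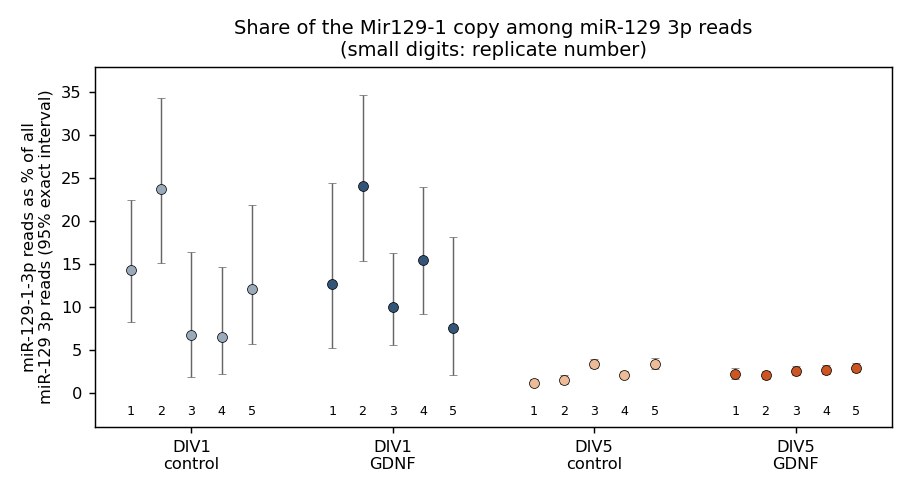
Reads of mmu-miR-129-1-3p as a percentage of all miR-129 3p reads in each library, with 95% exact binomial intervals, which cover counting error only; the digits give the replicate number. The DIV1 shares spread between 6.58% and 24.1% with wide intervals, and the DIV5 shares lie between 1.19% and 3.42%.

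The copy ratio also differed between the 2 sets of DIV5 replicates. Without GDNF there were 65.8 to 82.8 reads of mmu-miR-129-2-3p per read of mmu-miR-129-1-3p in replicates 1 and 2 and 28.2 to 46.1 in replicates 3 to 5. With GDNF the ratios were 43.8 to 47.8 and 33.6 to 37.9. The level of mmu-miR-129-2-3p moved with the set, at a mean of 2106 against 943 CPM without GDNF and 1529 against 942 CPM with it. That of mmu-miR-129-1-3p moved less, at 29.1 against 27.5 CPM and 33.1 against 26.4 CPM. A misread base at position 20 would move a read from the abundant strand to the rare one, and the part of such reads in the level of mmu-miR-129-1-3p at DIV5 was not tested.

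Other miRNAs whose copies have names of their own give a background for this difference. The comparison was added after the miR-129 values had been seen and is a description. For 12 pairs of tested strands named for copies 1 and 2 of a hairpin, the copies of miR-129 differed by 2.86 in their log2 fold change from DIV1 to DIV5 without GDNF and by 2.67 with it. With GDNF this was the largest of the 12 differences, followed by miR-138 with 2.03 (copy 1 at -0.80, copy 2 at 1.23). Without GDNF it was second to let-7f (difference -3.002), whose copy 1 had a mean of only 3.89 CPM. Both copies of miR-129 had positive values, whereas for miR-138, miR-125b and miR-128 copy 1 was negative and copy 2 positive, with and without GDNF. Both copies of let-7f were also positive in both contrasts.

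**Figure D3:**
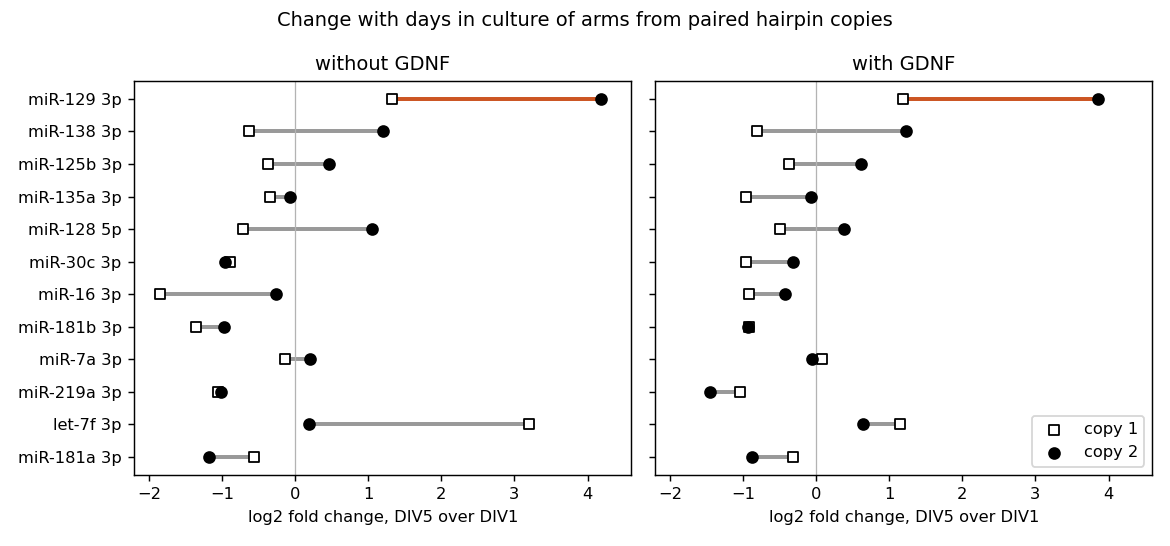
log2 fold change from DIV1 to DIV5 of strands from copy 1 (open squares) and copy 2 (filled circles) of 12 paired hairpins, without GDNF on the left and with GDNF on the right. The miR-129 pair, in orange, runs from 1.33 to 4.19 and from 1.18 to 3.85, with both ends right of 0.

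No effect of GDNF on either 3p strand of miR-129 was detected at DIV1. In edgeR's quasi-likelihood test with Benjamini-Hochberg adjustment the log2 fold change with GDNF was 0.07 for mmu-miR-129-2-3p (95% interval -0.56 to 0.71, adjusted p = 1.00) and 0.20 for mmu-miR-129-1-3p (-0.41 to 0.81, adjusted p = 1.00). The libraries with and without GDNF overlapped for both strands, as the values above show. Of the 2 tested members 0 were called, and 0% of all 542 miRNAs were called (7 were below 0.05 before adjustment). The DESeq2 and voom fits gave 0 calls too.

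At DIV5 the levels with and without GDNF overlapped as well. mmu-miR-129-2-3p had a log2 fold change of -0.26 in edgeR (95% interval -0.83 to 0.32, adjusted p = 0.814) and was lower with GDNF in replicates 1, 2 and 4 and higher in replicates 3 and 5. mmu-miR-129-1-3p had 0.05 (-0.43 to 0.53, adjusted p = 0.988). Of the 2 tested members 0 were called, while 0.185% of all tested miRNAs were, a single one, miR-182-5p of the series title (edgeR log2 1.46, SE 0.277, adjusted p = 0.0193), which is named here after its value was seen. With the replicate number as a block within each day, 3 were called and miR-129 was not among them. Within DIV5 replicates 1 and 2 mmu-miR-129-2-3p had -0.53 (edgeR adjusted p = 0.388), and within replicates 3 to 5 it had 0.00034 (adjusted p = 0.999). The intervals leave room for changes in both directions, so equal levels with and without GDNF are not shown.

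The difference between the GDNF effects of both days was tested as an interaction. The DIV5 effect minus the DIV1 effect was -0.33 on the log2 scale for mmu-miR-129-2-3p (95% interval -1.19 to 0.52, edgeR adjusted p = 0.919) and -0.14 for mmu-miR-129-1-3p (-0.92 to 0.63, adjusted p = 0.951). Neither was called, and 0% of all tested miRNAs were (50 were below 0.05 before adjustment, and the DESeq2 and voom fits gave 0 calls too). For mmu-miR-129-5p only a fit without the filter gives values. There the edgeR log2 fold change with GDNF was -0.20 at DIV5 (SE 0.395, adjusted p = 0.941 over 1581 miRNAs), and at DIV1 the comparison rests on 3 reads.

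**Figure D4:**
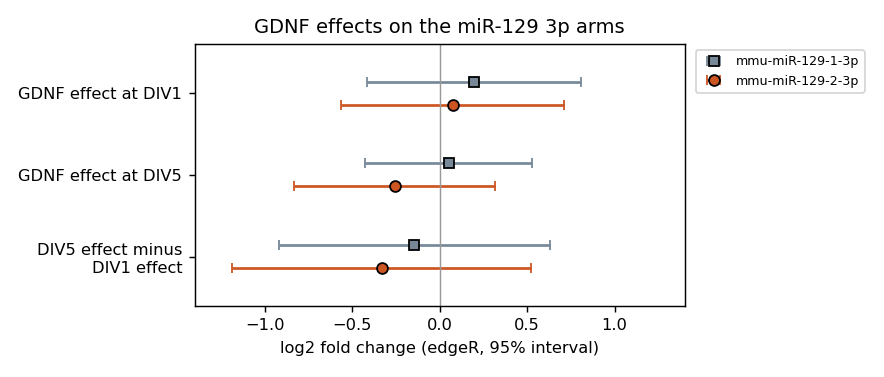
log2 fold change with GDNF at DIV1 and at DIV5, and the difference between them, for the 2 tested miR-129 strands (edgeR estimates; lines are 95% intervals). All 6 intervals include 0, and the widest, for the difference of mmu-miR-129-2-3p, runs from -1.19 to 0.52.

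No difference with GDNF beyond the spread of the libraries was found in the ratios within the family. The log2 ratio of mmu-miR-129-2-3p to mmu-miR-129-1-3p differed by -0.20 at DIV1 (exact permutation p = 0.683, two-sided) and by -0.21 at DIV5 (exact p = 0.516), each with an adjusted p of 0.683 over the 4 ratio tests. The log2 ratio of mmu-miR-129-5p to both 3p strands differed by -0.15 at DIV5 (exact permutation p = 0.619, adjusted p = 0.683). At DIV1 it was higher by 0.73 with GDNF (exact permutation p = 0.0556, adjusted p = 0.222; 5 libraries against 5 cannot go below 0.00794). The ratio was higher with GDNF in 5 of 5 same-numbered pairs (exact sign-flip p = 0.0625, the smallest that 5 pairs allow). However, the numbers were not taken to pair libraries at DIV1. In pairs 1, 2 and 5 neither library had a read of mmu-miR-129-5p. The sign there reflects only fewer 3p reads with GDNF (55 against 105, 83 against 84 and 53 against 74). The difference of 0.73 rests on 3 reads of mmu-miR-129-5p and on the 0.5 read added to each count. Without DIV1 GDNF replicate 2 or DIV1 control replicate 3 the unadjusted exact permutation p was 0.0159 and 0.0476.

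The miRNAs whose pattern over the 20 libraries was most like that of each strand were found by the root mean square difference of centred log2 CPM, among 437 tested miRNAs with a mean of at least 10 CPM. For mmu-miR-129-5p they were miR-873a-5p (0.782), miR-490-3p (0.797), miR-448-3p (0.820), miR-1298-3p (0.840) and miR-3059-5p (0.866), against a median of 1.64. mmu-miR-129-5p had 0 reads in 8 of the 20 libraries, where its value is only the 0.5 added before taking logs. For mmu-miR-129-2-3p the nearest were miR-132-5p (1.02) and miR-490-3p (1.03), with a median of 2.03, and miR-1298-3p, miR-873a-5p and miR-3059-5p followed. miR-873a-5p, nearest to mmu-miR-129-5p, went from 43.9 CPM at DIV1 to 209.0 CPM at DIV5 in the control means. For mmu-miR-129-1-3p the nearest were miR-383-5p (0.399) and miR-204-5p (0.434), with a median of 0.879, and miR-383-5p had 210.8 and 590.02 CPM in the control means of the 2 days. These measures describe the same libraries, share their depth and follow mostly the step between the days.

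Most miRNAs known to be enriched in neurons were higher at DIV5 too, and those of dividing progenitors were lower. The lists used here and in the next paragraphs were chosen with earlier results of these data known. Their calls and p-values by day are therefore a description and no independent support. Of 11 tested neuron-enriched miRNAs 10 were called higher without GDNF and 8 with it, and 0 lower, beside 31.4% and 25.1% of all 542 tested miRNAs called higher. The median log2 value of the list was 1.49 and 1.23, beside 0.10 and 0.0017 over all tested. miR-137-3p, a regulator of neuronal maturation, had a log2 value of 3.30 without and 1.67 with GDNF, and its SD over the DIV5 controls was larger than its mean (616 ± 662 CPM, n = 5). miR-132-3p, an activity-regulated miRNA of dendrites, had 2.34 and 1.55, miR-384-5p had 2.06 and 0.92, and miR-218-5p had 0.94 and 0.41, the last of these not called (edgeR adjusted p = 0.139). Further values were miR-128-3p 1.61, miR-383-5p 1.49, miR-124-3p 1.36, miR-212-3p 1.25 and miR-153-3p 0.71, all called without GDNF, and miR-7a-5p, called higher without GDNF, had 1.23 with it (edgeR adjusted p = 0.159). miR-9-5p, present in progenitors and young neurons, had -0.11 (edgeR adjusted p = 0.537). miR-138-5p had 0 reads in every library. mmu-miR-129-2-3p lay above 10 of the 11 without GDNF and above all 11 with it, whereas mmu-miR-129-1-3p lay within their range.

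miR-129-5p is known together with other miRNAs from synaptic scaling and dendrite growth, and that list was mixed. Of its 8 tested members, all other than miR-129, 5 were called higher and 2 lower without GDNF, and 4 and 2 with GDNF, where 60.7% and 52.4% of all tested miRNAs were called in either direction. Beside miR-124-3p, miR-132-3p and miR-218-5p, miR-485-3p (log2 1.06) and miR-134-5p (0.60), a repressor of dendritic spine growth, were higher without GDNF. miR-92a-3p, known in the regulation of AMPA receptors and also a product of the proliferation-linked miR-17-92 cluster, was lower (log2 -2.73, edgeR adjusted p = 1.73e-10). miR-186-5p was slightly lower (-0.22, edgeR adjusted p = 0.0141), and miR-485-5p had -0.20 (adjusted p = 0.322). For GDNF 0 members of either list were called at DIV1 or DIV5, beside 0% and 0.185% of all 542 tested miRNAs.

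All 9 tested miRNAs of the progenitor and proliferation list were called lower at DIV5 without GDNF and with it (median log2 -1.17 and -1.14), beside 29.3% and 27.3% of all tested miRNAs called lower. Its most abundant members, miR-92b-3p and miR-25-3p, had -1.64 and -1.39 without GDNF. Without DIV5 control replicates 1 and 5 the counts without GDNF were 10 of 11 neuron-enriched miRNAs higher and 8 of 9 progenitor miRNAs lower. With DIV5 replicates 1 and 2 alone they were 9 and 8, and with replicates 3 to 5 alone 10 and 9. Over all tested miRNAs these 3 fits called 285 of 530 (145 higher), 246 of 514 (143 higher) and 332 of 531 (165 higher). With GDNF the list counts were 6 and 9 with DIV5 replicates 1 and 2 alone and 9 and 8 with replicates 3 to 5 alone. The list medians were log2 0.86 and -1.03 in the first of these fits, beside 0.016 over all tested miRNAs. In the second they were 1.19 and -1.17, beside -0.022. The shares of all tested miRNAs called in these fits are not given here. In the 19 alternatives run with GDNF, 191 to 306 of all tested miRNAs were called in either direction.

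**Figure D5:**
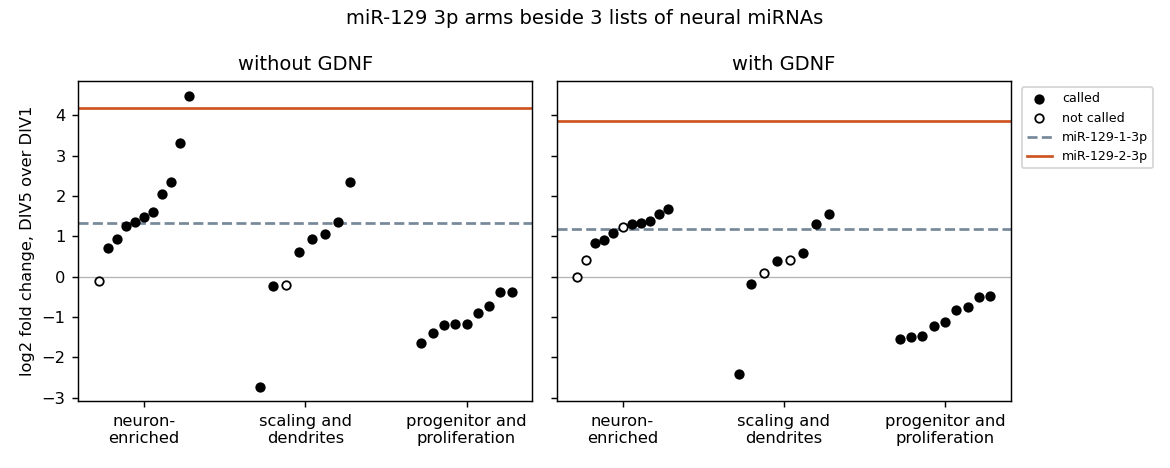
log2 fold change from DIV1 to DIV5 of the tested members of 3 lists of miRNAs, without GDNF on the left and with GDNF on the right; filled points were called by edgeR at an adjusted p below 0.05, and lines mark the 2 tested miR-129 strands. The solid line of mmu-miR-129-2-3p, at 4.19 and 3.85, lies above all points but 1 on the left and above all points on the right.

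Markers of cell types moved with the days as well. The summed level of the neuronal markers miR-124-3p and miR-128-3p was 3815 to 7145 CPM in the DIV1 controls and 12375 to 19807 CPM in the DIV5 controls, a smaller step than that of mmu-miR-129-2-3p. The 5 vascular and mesenchymal markers, led by miR-143-3p, summed to 2800 to 3991 CPM and 464 to 1390 CPM, with miR-126a-5p at 0. The 4 microglia and leukocyte markers, led by miR-142a-5p, summed to 63.2 to 108 CPM and 6.77 to 43.4 CPM. Of the 3 oligodendrocyte markers, which summed to 485 to 657 CPM and 205 to 411 CPM through miR-219a-2-3p, miR-219a-5p was at 0 throughout and miR-338-3p at 0 at DIV1. The 4 multiciliated and ependymal markers, of interest because miR-129-3p acts on cilia, summed to 372 to 457 CPM and 336 to 529 CPM, mostly miR-34c-5p, with miR-449c-5p at 0. Of these markers 0 of 3 tested were called between the days, beside 60.7% of all tested miRNAs without GDNF and 52.4% with it. The 4 erythroid markers summed to 2203 to 2997 CPM and 3294 to 5339 CPM through the joined row of miR-486a-5p and miR-486b-5p, while miR-451a, the defining erythroid miRNA, went from a mean of 36.6 to 9.41 CPM. The part of a changing cell composition in the rise of miR-129 was not tested.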

How the data were processed

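The files deposited by the authors hold raw read counts for each mature miRNA, not normalized. Per the submitters' processing notes cutadapt 1.8.1, STAR 2.4.1d and HTSeq were used with build mm10; the miRNA annotation, the strand setting and the handling of reads with several matches are not given in the sources used here. Tally lines were left out of totals, and reads without a feature were 9.51% to 22.6% of a library. Counts were fitted in R 4.3.3 with edgeR 4.0.16 (filterByExpr, TMM factors, robust glmQLFit and glmQLFTest, 1 coefficient per group, all 20 libraries), which tested 542 miRNAs, 2 of the 3 miR-129 strands among them. Calls are at a Benjamini-Hochberg adjusted p below 0.05, and tests are two-sided. Ratios used 0.5 added read and exact permutation tests in SciPy. The members and the lists were chosen with earlier results of these data known. Named were the 3 members, other miRNAs with their seeds, the 5 others with the largest rise from DIV1 to DIV5, the 5 most like each strand, every member of the first 2 lists and the 2 most abundant of each other list; further names were chosen after their values were seen. Alternatives were DESeq2 1.42.0, limma 3.58.1 voom, other scaling and filters, a replicate block and leaving out libraries. The fit was tested on simulated data. No 2 libraries of a group were near-identical (lowest chi-square per degree of freedom 10.3). At DIV5 same-numbered libraries of both groups deviated together (correlations 0.207 to 0.532), with every pair above 0.1, the limit set for pairing. Yet only DIV5 control replicates 2 and 4 correlated best with their own number, whereas replicates 1, 3 and 5 did so with 2, 5 and 4. The part of the split between DIV5 replicates 1 and 2 and replicates 3 to 5 in these correlations was not tested. Pairing at DIV5 is therefore uncertain, and the main tests are unpaired. At DIV1 4 of 5 pairs were above 0.1 (0.106 to 0.508) and replicate 2 was not (0.0223). There control replicates 1, 3 and 5 correlated best with their own number. The numbers were not taken to pair libraries at DIV1, nor across days. A single read was worth 0.198 to 2.60 CPM. Reads carry no molecular identifiers, so intervals and floors (3 reads) cover counting error only.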

Additional observations from a re-analysis of the deposited data

Results flagged for a closer look

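In DIV5 GDNF replicate 2 mmu-miR-129-5p had 9.93 CPM, from 17 reads, whereas the other 4 libraries of that group had 2.51 to 3.74 CPM. The gap to the next library was 0.834 of the range of the group, above the limit of 0.71 for 5 libraries. This was the only such library among 23 groups of values checked for the miR-129 strands and their ratios, and chance alone marks about 1 in 20 groups. The same library also had the highest mmu-miR-129-1-3p (39.1 CPM) and mmu-miR-129-2-3p (1872 CPM) of its group.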

How the results depend on the processing

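The fitted GDNF values of the 2 tested miR-129 strands were not called under any of the alternatives run; the ratio of 5p to 3p at DIV1 passed 0.05, unadjusted, without either of 2 libraries (exact permutation p = 0.0159 and 0.0476). The adjusted p of mmu-miR-129-2-3p lay between 0.388 and 0.999 at DIV5 (21 alternatives) and that of mmu-miR-129-1-3p between 0.825 and 1.00. Small values changed sign. At DIV5 mmu-miR-129-1-3p (main 0.05) had -0.037 without scaling beyond the library total, -0.12 without DIV5 control replicates 1 and 5 and -0.049 with DIV5 replicates 3 to 5 alone, and mmu-miR-129-2-3p (main -0.26) had 0.00034 with the last of these. Leaving out each library in turn gave -0.072 to 0.14 for mmu-miR-129-1-3p and -0.49 to 0.0095 for mmu-miR-129-2-3p at DIV5, -0.12 to 0.19 for mmu-miR-129-2-3p at DIV1, and -0.42 to 0.037 for the difference of effects of mmu-miR-129-1-3p. For the ratios it gave 0.43 to 0.94 (5p to 3p, DIV1), -0.34 to 0.015 (5p to 3p, DIV5), -0.50 to 0.056 (copies, DIV1) and -0.38 to 0.0024 (copies, DIV5). With only the DIV1 groups fitted, mmu-miR-129-1-3p failed the filter and has no value.

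The rise of mmu-miR-129-2-3p without GDNF, 4.19 in the main fit, was 4.83 with DIV5 replicates 1 and 2 alone, 3.62 with replicates 3 to 5 alone and 3.95 to 4.39 without each library in turn. The rise of mmu-miR-129-1-3p without GDNF was 1.19 to 1.64 over 20 alternatives. With GDNF the values were 3.58 to 4.25 and 1.06 to 1.45 over 19 alternatives. Without scaling beyond the library total the median of all miRNAs moved by 0.253 without and 0.147 with GDNF. With 1 added read in place of 0.5 the change of the log2 5p to 3p ratio from DIV1 to DIV5 was -1.60 without (main -0.66) and -2.21 with GDNF (main -1.55), since at DIV1 that ratio rests on the added read.

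Over all miRNAs the count called for GDNF at DIV5, 1 in the main fit, was 26 with DESeq2, 13 with a filter at a mean of 10 CPM, 0 in a fit of the DIV5 groups alone, 3 with the replicate block within each day, 0 without DIV5 control replicates 1 and 5, 2 with DIV5 replicates 1 and 2, 2 with replicates 3 to 5, and 0 to 43 without each library in turn. For the difference of effects it was 1 with DIV5 replicates 3 to 5 and 0 to 1 without each library. The causes were not tested. The replicate block within each day changed no call of miR-129: at DIV5 mmu-miR-129-2-3p had -0.17 (edgeR adjusted p = 0.638) and mmu-miR-129-1-3p 0.037 (adjusted p = 0.992). Paired exact sign-flip tests of the ratios gave p from 0.0625, the smallest that 5 pairs allow, to 0.688. Depth limits mmu-miR-129-5p most, with 0 to 2 reads in each DIV1 library.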

Other observations

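Some other miRNAs encoded at 2 loci, named here as examples, had 0 reads of the strand that their hairpins share. miR-138-5p, an abundant brain miRNA, had 0 reads in all 20 libraries, while strands of the opposite arm, miR-138-1-3p and miR-138-2-3p, had means of 45.1 and 7.76 CPM. miR-219a-5p also had 0 reads, while miR-219a-1-3p and miR-219a-2-3p had means of 223.8 and 401 CPM. By contrast miR-181a-5p, which is also at 2 loci, was among the most abundant miRNAs. Of 47 listed miRNAs at several loci, 6 had 0 reads and 25 had a mean of at least 10 CPM. Among 1557 at a single locus, 240 had 0 reads. The cause of these differences was not tested.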
